A study of Capra hircus with 24 samples.

Results

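Transcription factor genes of the dermis and dermal papilla were followed across papilla cells of cashmere goats (Capra hircus). The 9 genes were FOXD1, DMRT2, TWIST1, TWIST2, TBX15, TBX18, ALX4, PRRX1 and TRPS1. The genes were taken by symbol from the library tables: 9 of the 20326 genes listed, all 9 among the 13049 genes that passed the filter on low values. The 24 RNA-seq libraries form 8 groups of 3, each group being 1 follicle type, month and sex. Secondary follicles grow the cashmere undercoat and primary follicles grow the coarse guard hair; cells of both were taken in June, which the series calls early anagen, and in October, which it calls anagen, from females and males. The labels name no treatment, allele or age, and do not say whether the cells were cultured or pooled. Month, hair cycle stage and season cannot be told apart in this design. Libraries of 1 group are labelled as biological replicates, with no word on whether animals or cultures were separate, so the p-values measure the spread between these libraries, which may be technical.

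Transcription factors bind DNA at particular sequences and raise or lower the output of nearby genes. The dermal papilla is the cluster of mesenchymal cells at the base of the hair follicle that signals to the overlying epithelium, and it descends from dermal fibroblast precursors. Several of these factors are textbook markers or regulators of that lineage: TWIST proteins act in mesenchymal precursors as basic helix-loop-helix (bHLH) dimers, TBX15 and TBX18 are T-box proteins of embryonic dermis and papilla, ALX4 and PRRX1 are paired-type homeodomain proteins, and mutations of TRPS1 cause a human syndrome with sparse hair.

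Library totals of the deposited values ran from 959766 to 1045876, and their read depth is unknown, so no counting interval is given. Versican (VCAN), a papilla matrix marker, was between 206 and 541 in every library. Other papilla markers were low: CORIN stood at 0.05 to 0.34 and ALPL at 0 to 2.44. Papilla markers (16, led by VCAN or INHBA) summed to 615 to 1083, and dermal fibroblast markers (8, led by COL1A2 or COL3A1) to 11420 to 23950. Both sums were lowest in secondary June males, at 615 to 626 and 11420 to 11990. SOX2, which marks some papilla types, was low in all libraries of 3 groups. The defining markers PTPRC (blood cells) stood at 0 to 0.02, MLANA (melanocytes) at 0 to 0.34, RGS5 (pericytes) at 0.16 to 0.74 and PECAM1 (endothelium) at 0 to 2.08. PECAM1 stood at 1.84 to 2.08 in secondary June males and at most 0.38 elsewhere. The summed lists were higher. Immune markers (6 of 7 listed, led by CD68) summed to 19.8 to 25.8 in secondary June males and 3.23 to 11.9 elsewhere. Melanocyte markers (6, led by MITF) summed to 9.65 to 14.5 and pericyte markers (5, led by CSPG4) to 53.8 to 122. Endothelial markers (5) summed to 2.34 to 2.80 in secondary June males and 0.34 to 1.19 elsewhere. Schwann and nerve markers (4, led by S100B) summed to 25.9 to 61.8, and adipocyte markers (3 of 4) to 3.42 to 5.85. Sheath and smooth muscle markers (7, led by ACTA2) summed to 15870 to 16470 in primary June males and 9783 to 13460 elsewhere. Keratinocyte markers (9 of 12 genes listed) summed to 3.61 to 5.28 in 3 June groups, to 27.0 to 32.6 in primary June males, to 31.9 to 64.6 in 3 October groups, and to 271 to 296 in secondary October females. In that last group the basal keratin KRT5 averaged 197 ± 9.45 (SD, n = 3), and KRT14 reached 82.0 in 1 library. The part of any of these marker levels in the results below was not tested. Secondary October male libraries lay closest to primary October males (mean Pearson r over genes 0.992), the highest of any pair of groups. No check of the labelled follicle types was made, which limits every comparison with secondary October males. None of the 8 sex-linked genes chosen as a check was matched by symbol (0 of 8), so the labelled sexes were not checked.

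FOXD1, a forkhead factor used as a marker of papilla cells, kept more groups apart than any of the other 8 genes: 6 of the 7 pairs of groups next to each other in the order of means did not overlap. Overlap of groups was not counted over all tested genes, here or below, so whether this is unusual among genes cannot be read from it. Its level was low in 3 of the 4 secondary groups and high in every primary group and in secondary October males. Secondary June females had 0.33, 0.32 and 0.31, and secondary June males had 1.17, 0.90 and 1.15. Secondary October females had 1.73, 1.96 and 1.57, while secondary October males had 7.60, 8.22 and 8.72, the highest of all. Those 4 groups did not overlap one another.

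The primary groups were closer together. Primary June females had 6.61, 6.22 and 6.80, and primary June males 4.24, 4.21 and 4.72. In October the primary females had 5.49, 4.84 and 5.71 and the primary males 6.47, 6.20 and 6.49. Ordered by mean, only primary June females and primary October males overlapped among neighbouring groups. In bulk RNA, fewer cells of a type and less RNA per cell cannot be told apart.

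**Figure D1:**
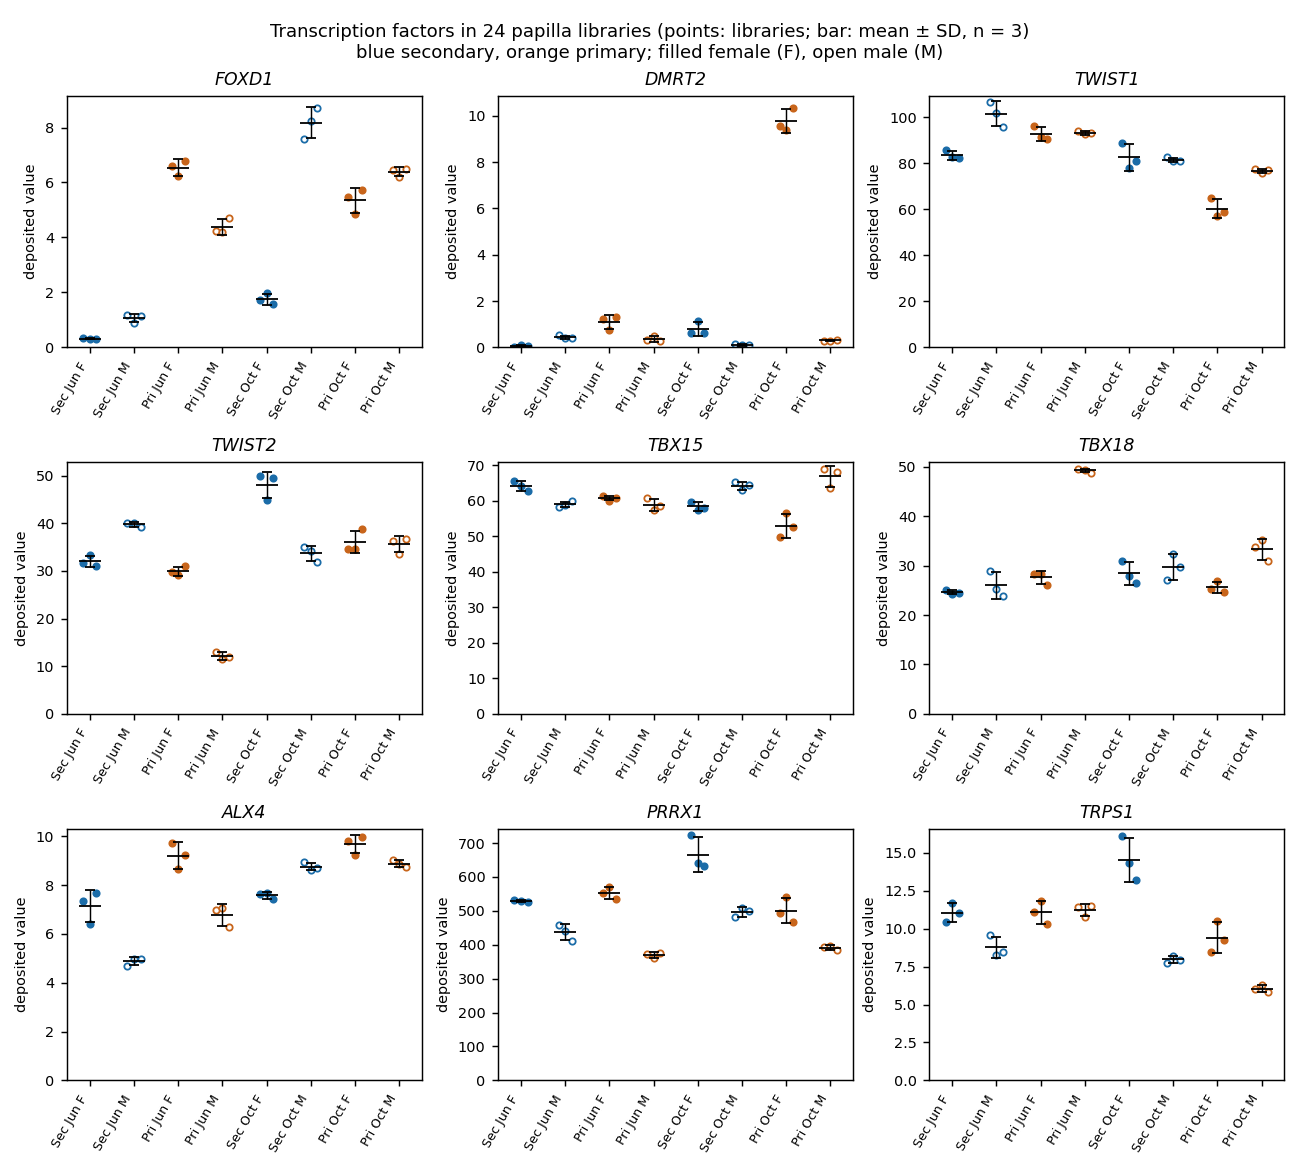
Deposited normalised signal of each of the 9 genes (vertical axes, 1 panel per gene, each with its own scale) in the 8 groups (horizontal axis; Sec, secondary; Pri, primary; Jun, June; Oct, October; F, female; M, male). Points are the 3 libraries of a group (blue, secondary; orange, primary; filled, female; open, male) and bars their mean and SD; FOXD1 is low in secondary June of both sexes and secondary October females, and DMRT2 stands at 9.39 to 10.35 in primary October females against at most 1.31 elsewhere.

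Between follicle types, FOXD1 in June females was lower in secondary than in primary cells on the log2(value + 1) scale (difference -2.51, SE 0.0751, limma adjusted p = 1.98e-17). In June males the difference was -1.38 (adjusted p = 2.99e-13) and in October females -1.20 (adjusted p = 8.91e-12). In October males it had the opposite sign, 0.31 (adjusted p = 0.00462). Secondary and primary October males were the closest pair of groups over all genes (mean Pearson r 0.992), with 18.5% of tested genes called between them. The labelled follicle type of secondary October males was not checked. The change of the follicle difference between males and females was itself tested and was 1.13 in June (adjusted p = 1.08e-08) and 1.52 in October (adjusted p = 1.51e-10). A pseudocount of 0.1 instead of 1 widened the June female difference to -3.98.

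From June to October FOXD1 rose in secondary cells of both sexes, by 1.06 in females (adjusted p = 6.26e-11; 2.14 with the pseudocount of 0.1) and by 2.15 in males (adjusted p = 1.25e-16). Mean levels were 5.48 times and 7.62 times those of June. In primary males it rose by 0.46 (adjusted p = 2.12e-05). In primary females it was lower in October (-0.25, adjusted p = 0.00839), a call that was lost without primary October female library 2 (-0.19, adjusted p = 0.0548). Fitting the compared groups alone also lost that call (adjusted p = 0.0566). Males were above females by 1.74 in secondary October (adjusted p = 1.32e-14) and by 0.65 in secondary June (adjusted p = 3.55e-07; 1.47 with the pseudocount of 0.1), and below them in primary June (-0.49, adjusted p = 1.39e-05). The male excess in primary October, 0.22 (adjusted p = 0.0262), was lost without primary October female library 2 (0.16, adjusted p = 0.135), male library 1 (0.21, adjusted p = 0.0729) or male library 3 (0.21, adjusted p = 0.075), and with the pseudocount of 0.1 (adjusted p = 0.0653). It was also lost when the compared groups were fitted alone (adjusted p = 0.0885).

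Over the 24 libraries, the genes whose log2 levels ran most like FOXD1 among 9982 compared were APBB2 (Pearson r = 0.95), EBF1 (0.94) and SOX2 (0.94). These are descriptions: libraries of a group share follicle type, month and sex, so the points are not independent. EBF1, an early B-cell factor family member also expressed in mesenchyme, averaged 4.30, 7.13 and 5.99 in the 3 groups where FOXD1 was low and 16.0 to 20.0 in the other 5. SOX2 was between 0 and 0.70 in the libraries of those 3 groups and averaged 12.4 to 15.9 in the others. FOXD1 differed from SOX2 within the low groups, since its secondary October female level was above its June levels.

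**Figure D2:**
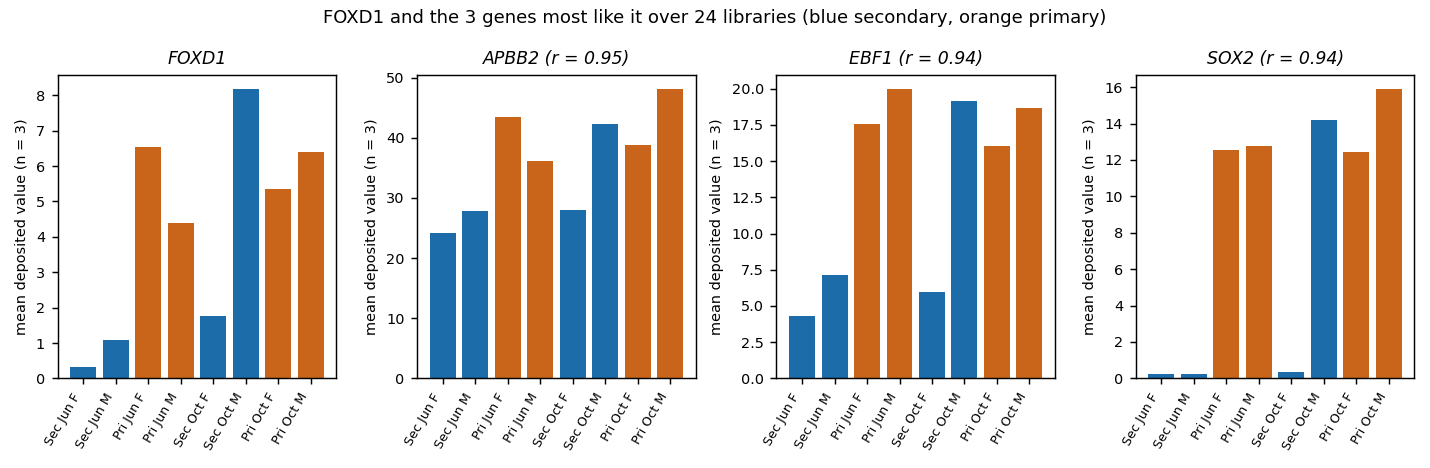
Mean deposited normalised signal over the 3 libraries of a group (bars, vertical axes from 0, 1 panel per gene) of FOXD1, APBB2, EBF1 and SOX2 in the 8 groups (horizontal axis, labelled as in the plot of all 9 genes; blue, secondary; orange, primary). In each panel the bars of secondary June and secondary October females are below those of the other 5 groups.

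DMRT2, a DM-domain factor of the family named after the doublesex and mab-3 sex determination genes, was high in a single group. Primary October females had 9.55, 9.39 and 10.35. Elsewhere the highest libraries were primary June females at 1.24, 0.76 and 1.31, and secondary October females at 0.62, 1.15 and 0.60. Primary October females overlapped no other group.

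In the remaining groups DMRT2 was near the bottom of the scale. Secondary June females were listed at 0, 0.09 and 0.04, and secondary June males at 0.52, 0.41 and 0.39. Primary June males had 0.32, 0.49 and 0.26, secondary October males 0.16, 0.09 and 0.10, and primary October males 0.29, 0.29 and 0.31. Only 6 of 24 libraries reached a value of 1, so DMRT2 passed the filter through few libraries.

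Within October, males were below females in primary cells by 3.05 (difference -3.05, SE 0.108, adjusted p = 4.69e-16) and in secondary cells by 0.67 (difference -0.67, adjusted p = 2.89e-05). In October females, secondary cells were below primary cells (-2.60, adjusted p = 6.99e-15). From June to October DMRT2 rose in primary females by 2.36 (adjusted p = 3.33e-14), a mean level 8.85 times that of June. The secondary October sex difference rests on values near 1 or below. So do the other DMRT2 calls: secondary minus primary in June females (-1.0, adjusted p = 7.07e-08), October minus June in secondary females (0.77, adjusted p = 3.51e-06) and males (-0.37, adjusted p = 0.00622), and male minus female in secondary June (0.46, adjusted p = 0.00156) and primary June (-0.63, adjusted p = 5.43e-05). Their size followed the pseudocount. With 0.1 these 5 differences were -3.08, 2.63, -1.32, 1.95 and -1.40, the secondary October sex difference was -2.00, and the primary October sex difference was -4.64. DMRT2 did not pass the test between follicle types in June males (0.09, adjusted p = 0.5) or October males (-0.22, adjusted p = 0.182; -0.89, adjusted p = 0.0215 with the pseudocount of 0.1).

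The genes most like DMRT2 over the 24 libraries were SMOC2 (r = 0.93, Spearman rho = 0.91), LPCAT3 (0.87, rho = 0.62) and CCL17 (0.85, rho = 0.22). CCL17, a chemokine, averaged 40.8 in primary October females and 2.55 to 6.62 in the other groups. SMOC2, a secreted calcium-binding matrix protein, averaged 403 in primary October females, with 141 to 258 elsewhere.

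TWIST2 showed the low counterpart of that pattern, with 1 group far below the rest. Primary June males had 13.05, 11.44 and 12.04, while primary June females had 29.74, 29.10 and 30.98. Secondary June males had 40.10, 39.98 and 39.22 and secondary June females 31.68, 33.27 and 31.11. Primary June males overlapped no other group. In the same group all 7 sheath and smooth muscle markers were higher than in primary June females and secondary June males, and lower by October (45.4%, 59.6% and 55.5% of all tested genes called). Of 8 dermal fibroblast markers, 5 were lower and 2 higher than in primary June females (45.4% of all tested genes called). Against secondary June males, 4 were higher and 4 lower (59.6% called). DCN averaged 179 in primary June males and 545 to 1302 elsewhere, while COL3A1 averaged 4922 there and 1875 to 6911 elsewhere. The part of either list in the TWIST2 level was not tested.

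In October TWIST2 was highest in secondary females, at 49.95, 44.86 and 49.41. This was also the group with the highest keratinocyte markers, whose part in the TWIST2 level was not tested. Secondary October males had 35.05, 34.11 and 31.93, primary October females 34.68, 34.70 and 38.72, and primary October males 36.35, 33.63 and 36.80. The last 3 groups overlapped.

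TWIST2 was higher in secondary than in primary cells of June males by 1.63 (SE 0.0575, adjusted p = 1.26e-16) and of October females by 0.41 (adjusted p = 5.43e-06). In primary males it rose from June to October by 1.47 (adjusted p = 1.16e-15), and it rose in secondary females by 0.57 (adjusted p = 2.28e-08) and primary females by 0.26 (adjusted p = 0.000769). In secondary males it was lower in October (-0.23, adjusted p = 0.00145). Males were below females in primary June (-1.23, adjusted p = 3.22e-14) and secondary October (-0.50, adjusted p = 2.4e-07) and above them in secondary June (0.30, adjusted p = 2e-04). All 9 of these calls held under every alternative that did not ask for a 2-fold change. With a common library total, the October male follicle difference (-0.08, adjusted p = 0.399) became a call at -0.16 (adjusted p = 0.048). Among the genes most like TWIST2 were PAXIP1 and SRSF2 (r = 0.93 each). SRSF2, a splicing factor, averaged 63.5 in primary June males, and 87.7 to 125 in the other groups.

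TWIST1 moved less and differently. It was highest in secondary June males (106.67, 102.05 and 95.85) and lowest in primary October females (65.01, 57.20 and 58.88), and primary October females overlapped no other group. The lowest secondary June male library lay just under the highest primary June female library, at 96.31. TWIST1 fell from June to October in primary females by 0.61 (difference -0.61, SE 0.051, adjusted p = 1.18e-09), in secondary males (-0.31, adjusted p = 1.91e-05) and in primary males (-0.28, adjusted p = 8.11e-05). In secondary females it averaged 83.6 ± 2.00 in June and 82.7 ± 5.78 in October (SD, n = 3). In October females it was higher in secondary than in primary cells by 0.45 (adjusted p = 2.37e-07). Males exceeded females in secondary June (0.28, adjusted p = 0.000154) and primary October (0.34, adjusted p = 1.08e-05).

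The June follicle differences of TWIST1 were small. In females the difference was -0.15 (adjusted p = 0.0183), and the call was lost without secondary June female library 2 (-0.14, adjusted p = 0.0548) or 3 (-0.14, adjusted p = 0.0591) or primary June female library 1 (-0.12, adjusted p = 0.0866). In males it was 0.12 (adjusted p = 0.0492). That call was lost without secondary June male library 1 (0.08, adjusted p = 0.214) or 2 (0.11, adjusted p = 0.106) and without any primary June male library (0.11 to 0.13, adjusted p from 0.075 to 0.105), while a common library total gave 0.21 (adjusted p = 0.00098). The call was also lost with no filter on low values (adjusted p = 0.0546) and with median-of-ratios factors (0.11, adjusted p = 0.0748). TOM1L1 (r = 0.92), ALDH5A1 (0.90) and SLC38A3 (0.88) ran most like TWIST1. Reads shared by TWIST1 and TWIST2, or by other near copies such as TBX15 and TBX18, were divided by the authors' software in a way not given in the sources used here.

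TWIST proteins bind DNA as dimers with E proteins (TCF3, TCF4, TCF12), can pair with HAND1 and HAND2, and compete for E proteins with the ID proteins, which lack a DNA-binding region. All 9 of these partner genes were tested. ID1 to ID4 were lower in October in every follicle type and sex. ID1 changed by -2.81 in secondary females, -1.94 in secondary males, -1.72 in primary females and -0.94 in primary males (largest adjusted p = 1.37e-11), and ID3 by -2.20, -1.63, -1.95 and -1.90 (largest adjusted p = 1.73e-14). ID4 changed by -0.50, -1.04, -1.31 and -3.84 in the same order, and stood at a mean of 109.7 in primary June males, the group where TWIST2 was lowest. ID2 changed by -0.86, -1.42, -1.52 and -0.61 (largest adjusted p = 1.71e-07).

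The E proteins did not follow the ID genes. From June to October TCF3 rose in secondary females (0.49), secondary males (0.47) and primary males (0.41; largest adjusted p = 7.09e-06). TCF4 rose in secondary females (0.68, adjusted p = 1.17e-07) and males (0.27, adjusted p = 0.00429). TCF12 rose in secondary males (0.34, adjusted p = 2.55e-06) and fell in primary females (difference -0.49, adjusted p = 1.63e-08) and males (-0.25, adjusted p = 0.00013). HAND1, a low-level gene here, averaged 2.50 in secondary June males and 0.167 to 1.54 elsewhere. HAND2 fell from June to October in secondary females (difference -1.45, adjusted p = 6.26e-16), primary females (-0.98, adjusted p = 6.92e-13) and primary males (-0.32, adjusted p = 2.13e-05), and rose in secondary males (0.35, adjusted p = 5.54e-06). Over the 9 partners, October minus June gave 3 higher and 5 lower in secondary females (median -0.50), 4 and 5 in secondary males (-1.04), 0 and 6 in primary females (-0.98), and 1 and 6 in primary males (-0.32). Of all tested genes, 51.3%, 56.5%, 48.2% and 55.5% were called in these 4 comparisons, and the medians of all tested genes ran from -0.015 to 0.001.

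**Figure D3:**
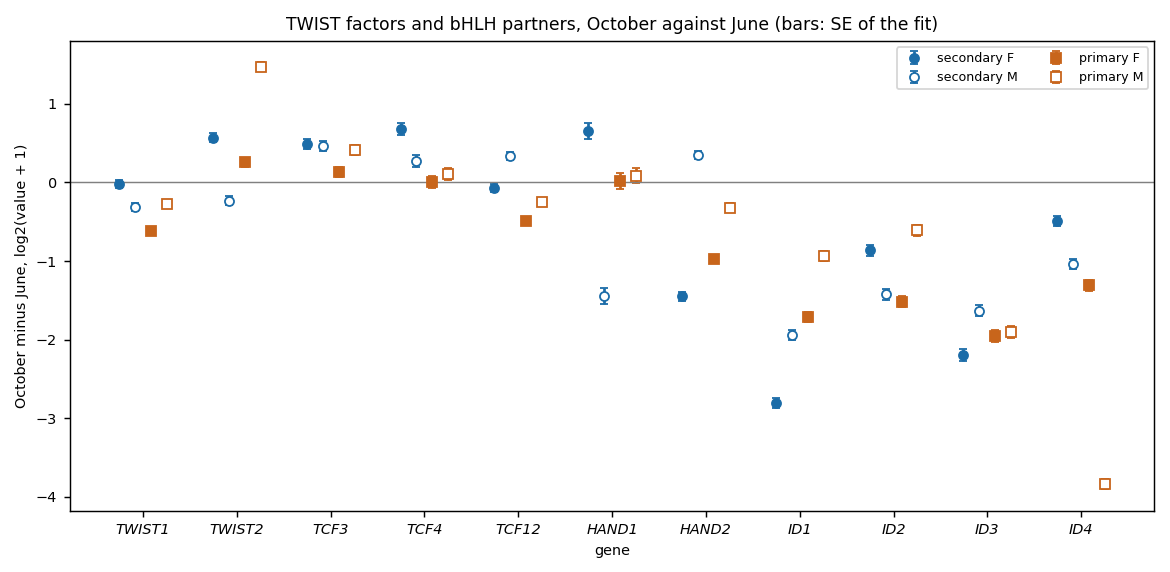
October minus June differences of TWIST1, TWIST2 and their 9 bHLH partner genes on the log2(value + 1) scale, for each follicle type and sex (blue circles, secondary; orange squares, primary; filled, female; open, male), with bars for the standard error of the fit. ID1 to ID4 lie below 0 in all 4 comparisons, and TWIST2 in primary males stands at 1.47.

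TBX18, the T-box factor of papilla precursors, was raised in 1 group. Primary June males had 49.51, 49.42 and 48.81, and primary October males 33.72, 35.15 and 31.01. The other 6 groups lay between 23.82 and 32.41 and overlapped one another in a chain, whose upper end reached the lowest primary October male library. TBX18 was lower in secondary than in primary cells of June males (-0.90, SE 0.0709, adjusted p = 2.16e-10), fell in primary males from June to October (difference -0.55, adjusted p = 7.39e-07), and was higher in primary males than females in June (0.81, adjusted p = 2.18e-09) and October (0.37, adjusted p = 0.000273). These 4 calls held under every alternative that did not ask for a 2-fold change. Primary June males were also the group in which all 7 sheath and smooth muscle markers were higher than in primary June females (median difference 0.467) and secondary June males. Of 8 dermal fibroblast markers, 5 were lower and 2 higher there than in primary June females (median difference -0.574). Of all tested genes, 45.4% were called between the sexes in primary June and 59.6% between follicle types in June males. The part of either list in the TBX18 level was not tested.

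The 2 other TBX18 calls, October over June in secondary cells, did not. In females the difference was 0.20 (adjusted p = 0.0239), and was not called without secondary June female library 2 (0.19, adjusted p = 0.0621) or 3 (0.19, adjusted p = 0.0611) or secondary October female library 1 (0.14, adjusted p = 0.144). In males it was 0.19 (adjusted p = 0.0288). It was not called without secondary June male library 2 (0.17, adjusted p = 0.0898) or 3 (0.13, adjusted p = 0.166), without secondary October male library 2 (0.12, adjusted p = 0.175) or 3 (0.19, adjusted p = 0.0616), or with a common library total (0.10, adjusted p = 0.267). Nor was it called when the compared groups were fitted alone (adjusted p = 0.0699). Follicle differences outside June males missed the threshold. They were 0.15 in October females (adjusted p = 0.118), -0.16 in June females (adjusted p = 0.0699; 0.0254 when the compared groups were fitted alone, and -0.19, adjusted p = 0.0485 without primary June female library 3) and -0.16 in October males (adjusted p = 0.126; -0.22, adjusted p = 0.048 without secondary October male library 2, and -0.24, adjusted p = 0.0258 with a common library total). ZDHHC17 (r = 0.94), GABRA4 (0.92) and GRB14 (0.92) ran most like TBX18. GABRA4, a subunit of a GABA receptor, averaged 14.2 in primary June males and at most 2.81 elsewhere.

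TBX15, the T-box factor of dorsoventral skin patterning, varied least of the 9. Its group means spanned 0.33 on the log2 scale, and 17.7% of tested genes spanned less. Primary October males had 69.01, 63.51 and 68.14, and primary October females 49.74, 56.48 and 52.61. That sex difference was 0.33 (SE 0.0441, adjusted p = 2.36e-06), and primary males also rose from June to October by 0.18 (adjusted p = 0.00129). In primary females TBX15 was lower in October (-0.20, adjusted p = 0.000826), a call not made when the compared groups were fitted alone (adjusted p = 0.0562).

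The 5 other TBX15 calls were small, and each was lost when certain single libraries were left out, with its sign kept. Leaving out a library also weakens the test, so a lost call does not show that the library carried the difference. Secondary over primary in October females (0.14, adjusted p = 0.0159) was lost without secondary October female library 1 (0.12, adjusted p = 0.0608) or primary October female library 1 (0.10, adjusted p = 0.109). October minus June in secondary females (-0.13, adjusted p = 0.0154) was lost without secondary June female library 1 (-0.12, adjusted p = 0.0605) or secondary October female library 2 (-0.12, adjusted p = 0.0534). In secondary males (0.12, adjusted p = 0.0221) it was lost without June library 1 or 2 or October library 1 or 3 (0.11 to 0.12, adjusted p from 0.0503 to 0.0707). Male minus female in secondary June (-0.12, adjusted p = 0.0366) was lost without female library 1 or 2 or any male library (-0.13 to -0.10, adjusted p from 0.0542 to 0.123), and in secondary October (0.14, adjusted p = 0.0166) without female library 2 or male library 1 (0.12 each, adjusted p 0.0574 and 0.0603). With a common library total, the secondary male month difference was 0.04 (adjusted p = 0.557), the secondary June sex difference -0.06 (adjusted p = 0.344) and the secondary October sex difference 0.08 (adjusted p = 0.18). The secondary female month difference was then -0.11 (adjusted p = 0.0676). With the compared groups fitted alone, the October female follicle difference (adjusted p = 0.224) and the secondary October sex difference (adjusted p = 0.0564) were not called.

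PRRX1, a broad marker of limb and skin mesenchyme, was lower in males than in females in all 4 pairings. In primary June, males had 374.16, 359.96 and 374.50, and females 554.14, 571.57 and 534.71 (difference -0.58, SE 0.0525, adjusted p = 4.1e-09). In secondary October, males had 481.61, 509.88 and 498.57, and females 724.49, 640.08 and 633.77 (difference -0.42, adjusted p = 8.27e-07). The sexes did not overlap in either. Secondary October females, the highest group for PRRX1, were also the group with the highest keratinocyte markers, whose part in the PRRX1 level was not tested. In primary October the difference was -0.35 (adjusted p = 1.16e-05) and in secondary June -0.28 (adjusted p = 0.000208).

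PRRX1 was also higher in secondary over primary cells in 3 of 4 comparisons: October females (0.41, adjusted p = 1.28e-06), October males (0.34, adjusted p = 4.41e-05) and June males (0.24, adjusted p = 0.000452). In June females it averaged 529 ± 3.57 in secondary and 554 ± 18.4 in primary cells (SD, n = 3). From June to October it rose in secondary females by 0.33 (adjusted p = 1.79e-05) and secondary males by 0.19 (adjusted p = 0.00458; 0.10, adjusted p = 0.156 with a common library total). In primary females it was lower in October (-0.15, adjusted p = 0.025), but not without primary June female library 1 (-0.15, adjusted p = 0.0576) or 2 (-0.12, adjusted p = 0.0991) or primary October female library 1 (-0.14, adjusted p = 0.0696) or 3 (-0.10, adjusted p = 0.139). A common library total (-0.13, adjusted p = 0.0759) and a fit of the compared groups alone (adjusted p = 0.128) also lost this call. LIX1L (r = 0.90), GPR83 (0.90) and TPM4 (0.89), the last a tropomyosin of the actin skeleton, ran most like PRRX1. Its paralog PRRX2 rose in secondary over primary June males by 0.56 (adjusted p = 5.2e-06) but was lower in October in secondary females (-0.31, adjusted p = 0.00334), secondary males (-0.66, adjusted p = 5e-07) and primary females (-0.29, adjusted p = 0.00624).

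ALX4, the homeodomain factor linked to skin and craniofacial mesenchyme, was lowest in secondary June males, at 4.69, 4.97 and 4.98, which overlapped no other group. Primary October females had 9.81, 9.25 and 9.96, the highest. ALX4 was lower in secondary cells than in primary ones in June females (-0.33, SE 0.0614, adjusted p = 0.000127), June males (-0.40, adjusted p = 6.53e-06) and October females (-0.31, adjusted p = 0.000309). In October males it averaged 8.76 ± 0.157 in secondary and 8.88 ± 0.15 in primary cells (SD, n = 3), with overlapping libraries. Over all genes these groups were the closest of any pair (mean Pearson r 0.992).

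In males ALX4 rose from June to October by 0.73 in secondary cells (adjusted p = 7.36e-10) and by 0.35 in primary cells (adjusted p = 5.36e-05). In females the month differences were 0.08 (adjusted p = 0.296) and 0.06 (adjusted p = 0.408). Males were below females in June, by -0.47 in secondary (adjusted p = 2.13e-06) and -0.39 in primary cells (adjusted p = 1.61e-05). The male excess in secondary October (0.18, adjusted p = 0.0197) was lost without female library 3 (0.17, adjusted p = 0.0607) or male library 1 (0.17, adjusted p = 0.0636). It was also lost with a common library total (0.14, adjusted p = 0.0887) and when the compared groups were fitted alone (adjusted p = 0.0542). RASSF4 (r = 0.91), TLN2 (0.91) and C5H12orf57 (0.90) ran most like ALX4.

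TRPS1, a GATA-type zinc finger repressor, was highest in secondary October females (16.09, 14.34 and 13.23) and lowest in primary October males (6.05, 6.26 and 5.86). Neither group overlapped another. In October it was higher in secondary than in primary cells of females (0.58, SE 0.0757, adjusted p = 1.73e-06) and males (0.35, adjusted p = 0.00202), and in June males it was lower (-0.33, adjusted p = 0.000758). It fell from June to October in primary males (difference -0.79, adjusted p = 7.52e-09) and rose in secondary females (0.36, adjusted p = 0.000361).

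In primary females TRPS1 was lower in October (-0.22, adjusted p = 0.0215), but not without primary June female library 1 (-0.22, adjusted p = 0.0503) or 2 (-0.17, adjusted p = 0.101) or primary October female library 1 (-0.15, adjusted p = 0.138) or 3 (-0.21, adjusted p = 0.0502). A common library total (-0.20, adjusted p = 0.0512) and a fit of the compared groups alone (adjusted p = 0.101) also lost this call. Males were below females in secondary October (-0.79, adjusted p = 1.33e-08), primary October (-0.56, adjusted p = 3.48e-06) and secondary June (-0.31, adjusted p = 0.00261). FAM122B (r = 0.95), PAK3 (0.94) and GPR137B (0.90) ran most like TRPS1. Its highest group was the group with the highest KRT5, whose part in the TRPS1 level was not tested.

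Set side by side, the comparisons of follicle type differed in which of the 9 genes moved. In June females 4 of 9 were called, all lower in secondary cells (FOXD1, DMRT2, ALX4, TWIST1) (49.3% of all tested genes called, 25% higher and 24.3% lower). In June males 3 were higher and 4 lower (59.6% of all tested genes called, 30.7% higher and 28.9% lower). In October females 5 were higher (TWIST1, TWIST2, PRRX1, TRPS1 and TBX15) and 3 lower (FOXD1, DMRT2, ALX4) (35.5% of all tested genes called, 18.3% higher and 17.2% lower). In October males 3 were higher (PRRX1, TRPS1, FOXD1) and 0 lower (18.5% of all tested genes called, 10.9% higher and 7.63% lower). With a common library total, 3 more were called in October males, all lower (TBX15, TBX18 and TWIST2). In that setting 26.9% of all genes called were higher, against 58.7% with the values as deposited. Medians over the 9 genes were -0.15, 0.004, 0.146 and -0.017, beside 0.003 to 0.009 over all tested genes.

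From June to October, 6 of the 9 rose and 1 was lower in secondary females (51.3% of all tested genes called, 24.2% higher and 27.1% lower). In secondary males 5 rose and 3 were lower (56.5% of all tested genes called, 25.3% higher and 31.2% lower). In primary females 2 rose and 5 were lower (48.2% of all tested genes called, 22.7% higher and 25.6% lower). In primary males 4 rose and 3 were lower (55.5% of all tested genes called, 26% higher and 29.5% lower). The medians of the 9 were 0.328, 0.122, -0.147 and 0.081, beside -0.015 to 0.001 over all tested genes. These comparisons share libraries with those of follicle type and sex, so the sets of differences are not independent of one another.

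Between the sexes, 4 were higher and 4 lower in males in secondary June (39.5% of all tested genes called, 20.9% higher and 18.6% lower). In secondary October the counts were 3 and 4 (40.4% of all tested genes called, 19.5% higher and 20.9% lower), in primary June 1 and 5 (45.4% of all tested genes called, 23.1% higher and 22.3% lower), and in primary October 4 and 3 (33.6% of all tested genes called, 15.8% higher and 17.8% lower). In all, 79 of the 108 tests of a member between groups were called, beside 44.4% of such tests over all genes. Of the 79, 13 had a difference of at least 1 on the log2 scale, all in FOXD1, DMRT2 and TWIST2. Over the same 12 comparisons, 3.77% of tests of all genes passed that 2-fold rule. Of the 79, 63 held under every alternative that did not ask for a 2-fold change. The spans of the group means were 3.37 for DMRT2, 2.80 for FOXD1 and 1.90 for TWIST2, larger than those of 99.1%, 98.4% and 94.3% of tested genes. These ranks are descriptions. DMRT2 reached 1, the value of the filter, in only 6 of 24 libraries, among them every library of its highest group, so its rank is not independent of the filter. Of the other 6, TBX15 spanned 0.33, below the median of 0.55 over all tested genes, and 5 spanned 0.74 to 1.14, above it.

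**Figure D4:**
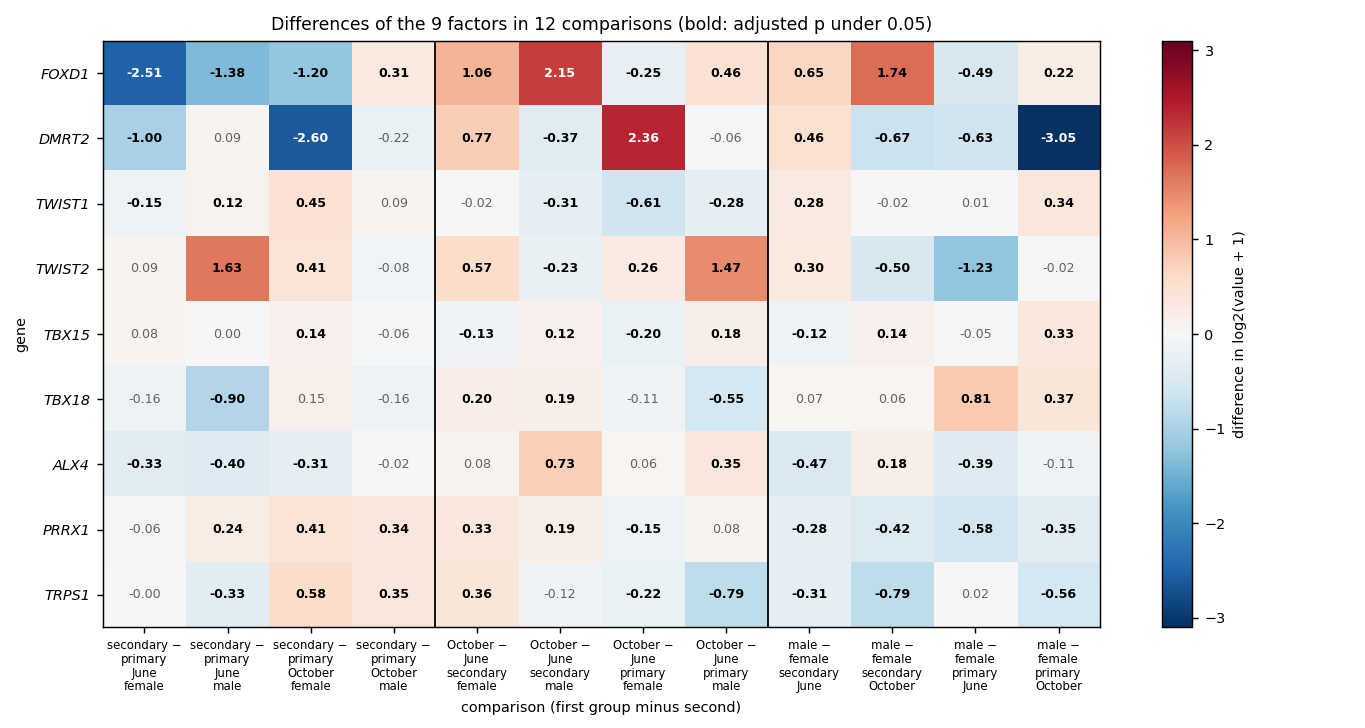
Differences of the 9 genes (rows) in the 12 comparisons of follicle type, month and sex (columns) on the log2(value + 1) scale, shown as colours and numbers, in bold where called at adjusted p under 0.05. The 13 differences of at least 1 lie in FOXD1, DMRT2 and TWIST2.

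Differences between differences were also tested. The follicle difference changed with month for 6 higher and 1 lower of the 9 in females (40.2% of all tested genes called, 20.7% higher and 19.5% lower) and for 4 and 1 in males (43.9% of all tested genes called, 21.6% higher and 22.3% lower). It changed with sex for 5 and 2 in June (41.2% of all tested genes called, 20.9% higher and 20.4% lower) and for 3 and 4 in October (26.7% of all tested genes called, 13.7% higher and 13% lower). The month difference changed with sex for 3 and 4 in secondary cells (37.7% of all tested genes called, 17.3% higher and 20.4% lower) and for 6 and 3 in primary cells (36.8% of all tested genes called, 17.7% higher and 19.1% lower). In males the follicle difference of TWIST2 changed from June to October by -1.71 (SE 0.0813, adjusted p = 1.03e-13) and that of FOXD1 by 1.69 (SE 0.106, adjusted p = 1.28e-11). Over the 6 tests together, 42 of 54 tests of a member were called, beside 37.8% over all genes.

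Among 15 tested relatives of the 9 genes (38 of 40 listed), October minus June gave 2 higher and 5 lower in secondary females, 2 and 8 in secondary males, 1 and 7 in primary females and 2 and 6 in primary males. The shares of all tested genes called in the same comparisons were 51.3%, 56.5%, 48.2% and 55.5%. TBX3, a T-box gene related to TBX15 and TBX18, was lower in October in all 4, with differences of -0.47 (adjusted p = 1.02e-07) and -1.06 in secondary females and males and -1.52 and -1.48 in primary females and males. It was also lower in secondary than in primary June females (-1.59, adjusted p = 7.42e-17). MSC, a bHLH repressor, rose in primary males (1.68, adjusted p = 9.73e-12) and secondary females (1.30, adjusted p = 1.16e-09).

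Of 53 other tested dermal and mesenchymal factors (70 of 71 listed), October minus June gave 23 higher and 19 lower in secondary females (51.3% of all tested genes called), 22 and 20 in secondary males (56.5%), 9 and 28 in primary females (48.2%) and 24 and 16 in primary males (55.5%). NR2F2, a nuclear receptor of mesenchyme, rose in secondary males by 2.87 (adjusted p = 2.6e-20) and was lower in October in secondary females (-1.03, adjusted p = 2.41e-12). MAF, a leucine zipper factor, was higher in secondary over primary cells in all 4 comparisons, from 1.30 in June females to 2.56 in June males (largest adjusted p = 5.06e-09). DLX3, a hair follicle homeodomain factor, was lower in October in all 4, from -0.70 in primary females to -2.25 in secondary males (largest adjusted p = 1.69e-05).

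Genes known as targets or partners of the 9 factors (15 tested, 16 of 17 listed) gave 8 higher and 5 lower in October in secondary females (51.3% of all tested genes called), 8 and 4 in secondary males (56.5%), 3 and 11 in primary females (48.2%) and 8 and 4 in primary males (55.5%). Periostin (POSTN), a matrix protein and TWIST1 target, rose in all 4, by 1.25 and 2.25 in secondary females and males and by 1.46 and 1.33 in primary females and males (largest adjusted p = 1.19e-14). CDH2, N-cadherin, rose in all 4 as well, from 0.22 (secondary females, adjusted p = 0.00111) to 1.41 (secondary males). CDH1, E-cadherin, rose most in secondary females (1.52, adjusted p = 6.54e-13), the group with the highest keratinocyte markers. WIF1, a secreted Wnt inhibitor, was lower in October in secondary females (-1.35), secondary males (-1.47) and primary females (-1.50) and rose in primary males (0.70; largest adjusted p = 6.79e-05).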

How the data were processed

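RNA-seq of dermal papilla cells was deposited as 1 table per library, holding normalised values per gene. Per the submitters' processing notes, kallisto 0.46.1 and sleuth 0.30.0 were used; no genome build or annotation is named there. Values as deposited are treated as a signal scaled by the authors, since library totals (959766 to 1045876) straddle 1000000 and no unit is stated. Whether they are per gene length is not stated, so no test compares levels between genes. Marker sums, leading genes of a list and words such as low describe the deposited values only. Symbols of all 9 genes matched RefSeq gene names by gene ID.

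Genes with at least 1 in at least 3 libraries were kept. Differences were fitted on log2(value + 1) with limma 3.58.1 (R 4.3.3, statmod 1.5.0), with 8 group means over all 24 libraries and trended, robust moderation. P-values were Benjamini-Hochberg adjusted over the 13049 genes and called under 0.05. The log2(value + 1) scale understates changes of low genes. The fit was tested on simulated data. Named genes were the 9 members, up to 4 called genes per list with the largest difference in follicle or month comparisons, and the 3 genes most like each member whose group means span at least 0.5; all 9 bHLH partners and PRRX2 were named in addition after their values were seen. 1 gene that the rule names is not reported here. Members and lists were chosen with earlier results of these data known. Alternatives were other filters, a pseudocount of 0.1, median-of-ratios factors, a common total, a replicate block, compared groups alone, non-robust moderation, leaving out each library, and a 2-fold rule.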

Additional observations from a re-analysis of the deposited data

Results flagged for a closer look

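For 42 of 54 tests of a member, the difference seen in 1 sex, month or follicle type differed from that in the other by a limma test of the difference itself (adjusted p under 0.05 over all tested genes), beside 37.8% of such tests over all genes. Values are changes of a log2(value + 1) difference: October minus June for the secondary-minus-primary difference, male minus female for the secondary-minus-primary or the October-minus-June difference. The 6 tests of a member reuse the same 8 groups, so they are not independent.

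FOXD1 changed in all 6. Its follicle difference rose from June to October by 1.31 in females and 1.69 in males, and was higher in males than in females by 1.13 in June and 1.52 in October. Its month difference was higher in males by 1.09 in secondary and 0.71 in primary cells. With a pseudocount of 0.1 the female change with month was 2.43, the June change with sex 2.04 and the secondary change with sex 0.69.

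For DMRT2 the change of the follicle difference with month in females was -1.60, which fell to -0.44 (adjusted p = 0.378) with a pseudocount of 0.1. The change of its follicle difference with sex was 1.09 in June and 2.38 in October. The change of its month difference with sex was -1.13 in secondary and -2.43 in primary cells. With a pseudocount of 0.1 the June value was 3.35 and the secondary value -3.95, and the male change of the follicle difference with month, not called at -0.30 (adjusted p = 0.113), was called at -1.15 (adjusted p = 0.0164).

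TWIST2 changed in all 6. The follicle difference changed with month by 0.31 in females and -1.71 in males, and with sex by 1.54 in June and -0.48 in October. The month difference changed with sex by -0.80 in secondary and 1.22 in primary cells. TWIST1 changed in 5. Its follicle difference changed with month by 0.60 in females, and with sex by 0.27 in June and -0.36 in October, and its month difference changed with sex by -0.29 in secondary and 0.34 in primary cells.

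For TBX18 the change of the follicle difference with month was 0.30 in females, lost without secondary October female library 1 (0.24, adjusted p = 0.0619), and 0.74 in males. Its change with sex was -0.74 in June and -0.31 in October. The October value was lost without secondary October female library 1, secondary October male library 1, primary October female library 1 or 3, or primary October male library 1 or 2 (-0.30 to -0.24, adjusted p from 0.0511 to 0.089). That value was also lost when the compared groups were fitted alone (adjusted p = 0.061). The month difference of TBX18 in primary cells changed with sex by -0.45. For TBX15 the follicle difference changed with sex by -0.20 in October, lost without secondary October female library 1, secondary October male library 2, primary October female library 1, or primary October male library 1 or 3 (-0.18 to -0.15, adjusted p from 0.0508 to 0.0723). Fitting the compared groups alone also lost that change (adjusted p = 0.101). The month difference of TBX15 changed with sex by 0.26 in secondary cells (0.14, adjusted p = 0.1 with a common library total) and 0.38 in primary cells.

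ALX4's follicle difference changed with month by 0.39 in males (0.23 with a common library total) and with sex by 0.30 in October (0.22, adjusted p = 0.071 with a common library total). Its month difference changed with sex by 0.65 in secondary and 0.28 in primary cells. PRRX1's follicle difference changed with month by 0.47 in females and with sex by 0.30 in June. Its month difference changed with sex by 0.23 in primary cells, lost without primary June female library 2 (0.20, adjusted p = 0.0505) or primary October female library 3 (0.18, adjusted p = 0.0563). TRPS1's follicle difference changed with month by 0.58 in females and 0.67 in males and with sex by -0.33 in June. The June value was lost without secondary June female library 2 (-0.29, adjusted p = 0.0512), secondary June male library 2 (-0.29, adjusted p = 0.0519) or primary June female library 3 (-0.28, adjusted p = 0.0521). A common library total also lost that value (-0.24, adjusted p = 0.104). TRPS1's October value was not called (-0.23, adjusted p = 0.116) but was called without primary October female library 2 (-0.31, adjusted p = 0.0275). Its month difference changed with sex by -0.48 in secondary and -0.58 in primary cells.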

How the results depend on the processing

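Over 9 alternatives other than the 2-fold rule, 2579 recomputed values gave 2475 on the same side of the threshold, 88 that lost a call, 16 that gained one and 0 in which a called difference changed sign. In 32 values, all uncalled with either setting, the difference lay on the other side of 0. The cause of these shifts was not tested. With a common library total, 6 members were called between follicle types in October males instead of 3. Fitting the compared groups alone gave 2686 genes between follicle types in October females instead of 4628, 3 members by month in primary females instead of 7, and 4 by sex in secondary October instead of 7. The shares of all genes called beside these changed member counts are not given here. Whether the changes are particular to the members cannot be read from the counts. The change to a common total moved the median of all genes by over 0.1 in 2 tests, to -0.17 for follicle type by month in males and -0.12 for sex by month in secondary cells. It moved the share of higher calls by over 10 points in 11 of 18 tests, most for follicle type in October males, from 58.7% to 26.9%.

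A call that also asked for a difference of at least 1 on the log2 scale left fewer members and genes by construction. Between follicle types it left 2 and 557 in June females, 2 and 959 in June males, 2 and 402 in October females, 0 and 86 in October males. By month it left 1 and 514 in secondary females, 1 and 823 in secondary males, 1 and 382 in primary females, 1 and 670 in primary males. By sex it left 0 and 252 in secondary June, 1 and 399 in secondary October, 1 and 530 in primary June, 1 and 334 in primary October. For follicle type by month it left 2 and 727 in females, 2 and 869 in males, for sex by follicle type 3 and 742 in June, 2 and 428 in October, and for sex by month 2 and 695 in secondary, 2 and 674 in primary cells.

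No pairing by replicate number was detected: deviations of same-numbered libraries correlated from -0.281 to 0.294, with 9 of 36 pairs over 0.1 and 0 of 12 comparisons with all pairs over 0.1. With 3 libraries per group, these correlations cannot show whether same-numbered libraries shared an animal. With the replicate number as a block, 1 member call changed, TBX18 between follicle types in June females (-0.16, adjusted p = 0.046). Leaving out 1 library gave 5 to 7 members called by sex in secondary October instead of 7, and 4451 to 4879 genes instead of 5277. Between follicle types in October males it gave 3 to 4 members instead of 3, and 1755 to 2062 genes instead of 2412. A fit with 1 library fewer is a weaker test, so a call lost this way need not rest on the library left out. Read depth is unknown, and DMRT2 and the low FOXD1 values are the least certain in size.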
